A study of Mus musculus with 3 samples.

Results

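The AP-1 and immediate early genes Jun, Junb, Jund, Fos, Fosb, Fosl1, Fosl2, Atf3, Egr1 and Ier2 were followed through every cell class of mouse dorsal skin. They were chosen by gene symbol, and all 10 were found once each among the 32285 genes of the count matrices. The question was whether their levels after ultraviolet B (UVB) light moved together in all cell classes or differed between classes. Single-cell 3′ RNA libraries had been made from digested dorsal skin after enrichment on CD45+ magnetic beads, with 1 library from each of 3 groups of male C57Bl/6 mice, 8 weeks old and in telogen, the resting phase of the hair cycle. WT_Ctrl was wild-type skin without UVB. WT_UV was wild-type skin after 3 UVB exposures given once per 2 days and collected at day 5. The paper gives this as the time point of its bulk RNA sequencing, which was hours after the third exposure. RP_UV was skin of RP mice (Rosa26-rtTA; Tre-Ptgs2), in which doxycycline switches on a rat Ptgs2 gene, encoding the prostaglandin enzyme Cox-2, throughout the body through rtTA made from the Rosa26 locus. It had the same 3 exposures and collection day and came from 1 male, and the sources used here do not give the doxycycline schedule of this library or say whether wild-type mice drank doxycycline. No library of RP skin without UVB was analysed here, so genotype and UVB cannot be told apart in RP_UV against WT_Ctrl, nor genotype and doxycycline in either comparison of RP_UV.

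AP-1 is a dimer of basic leucine zipper proteins, most often a Jun family protein with a Fos family protein, that binds short sites in promoters and enhancers. Many genes of these families are immediate early genes. Growth factors, cytokines, UV light and the handling of tissue switch them on within minutes through kinases that act on factors already present, and the transcripts are short-lived. In skin, AP-1 is known for its part in keratinocyte differentiation and stress responses, and in myeloid cells for cytokine expression.

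Promoter sequences are shown for the members whose window before the transcription start held the letters TGACG, the core of the cyclic AMP response element. RefSeq promoter windows (build GRCm38.p6) were matched for 7 of the 10 genes, all except Fosl1, Egr1 and Ier2. The 250 bases before the start are printed 5′ to 3′ on the strand of the gene. Capitals mark TGACG, or CGTCA where the match lies on the other strand, and in Fos also TATAAA. Fos lies on the plus strand at chr12:85473640-85473889, Fosb on the minus strand at chr7:19310046-19310295, Junb on the minus strand at chr8:84978749-84978998 and Atf3 on the minus strand at chr1:191183334-191183583.
Fos: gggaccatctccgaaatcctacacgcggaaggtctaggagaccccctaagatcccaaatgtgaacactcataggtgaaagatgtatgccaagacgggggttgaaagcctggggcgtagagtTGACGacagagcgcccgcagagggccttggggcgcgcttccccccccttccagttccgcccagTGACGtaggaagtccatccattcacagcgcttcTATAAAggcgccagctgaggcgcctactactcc
Fosb: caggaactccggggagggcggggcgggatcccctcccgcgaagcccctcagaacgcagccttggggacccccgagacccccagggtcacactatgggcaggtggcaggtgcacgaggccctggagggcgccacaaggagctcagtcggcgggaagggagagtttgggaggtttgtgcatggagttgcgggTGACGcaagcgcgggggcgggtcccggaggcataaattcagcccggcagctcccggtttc
Junb: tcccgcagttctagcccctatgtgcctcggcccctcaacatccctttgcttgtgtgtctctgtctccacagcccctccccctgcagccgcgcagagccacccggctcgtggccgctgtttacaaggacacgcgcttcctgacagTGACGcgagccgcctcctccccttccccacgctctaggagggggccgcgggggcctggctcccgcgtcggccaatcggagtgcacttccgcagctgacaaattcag
Atf3: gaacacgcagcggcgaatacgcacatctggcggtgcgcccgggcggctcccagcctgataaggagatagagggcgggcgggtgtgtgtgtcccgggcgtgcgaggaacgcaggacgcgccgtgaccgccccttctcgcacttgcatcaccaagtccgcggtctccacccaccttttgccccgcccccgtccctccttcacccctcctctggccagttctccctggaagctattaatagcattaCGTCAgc
TGACG was found in 4 of the 7 windows, and in 17.8% of all 32851 windows of the same length. It started 129 and 66 bases before the start of Fos, 60 before that of Fosb and 106 before that of Junb, and the match on the other strand in Atf3 lay 7 to 3 bases before the start. The full palindrome TGACGTCA (1.55% of all windows), the AP-1 site TGANTCA (6.75%) and the CArG box, the site of serum response factor (1.47%), were found in 0 of the 7 windows. Both strands were searched, and the palindrome contains the core. These matches describe letters in a short window and say nothing of binding.

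UMIs are unique molecules counted. The libraries held 34985549 UMIs (WT_Ctrl, 5977 barcodes), 82722013 (WT_UV, 6149 barcodes) and 37689836 (RP_UV, 7240 barcodes), and the limits on cells kept 5309, 5225 and 6070. WT_UV was the deepest, with a median of 10557 UMIs per kept cell against 4246 and 3774. By their labels, WT_UV was sequenced on a flow cell of its own and the remaining pair shared one, so sequencing run and group cannot be told apart in the comparisons with WT_UV. Clusters were named from marker genes, each name means X-like, by markers only, and 17.3%, 25% and 16.8% of kept cells stayed unnamed. Despite the CD45+ beads, 1819, 613 and 2242 cells carried non-immune names. The libraries shared 7 to 9 kept barcodes per pair. Ptgs2, the targeted gene, was counted at 14.4, 117 and 486 CPM, where CPM is the UMIs of a gene per 1000000 UMIs of all genes in the same cells, and how far reads of the rat copy were counted as mouse Ptgs2 was not tested. With 1 library per group no difference had a replicate check, and no p-value was computed. Intervals are 95% and cover counting error only.

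Over all kept cells the summed level of the 10 genes was nearly level, at 5975 CPM in WT_Ctrl, 5529 in WT_UV and 5496 in RP_UV. The classes beneath this total differed. In keratinocyte-like cells the sum was 7202 CPM without UVB (WT_Ctrl, interval 7144 to 7260), 4144 after UVB in wild-type skin (4097 to 4192) and 2415 after UVB in RP skin (2382 to 2449). In macrophage- or monocyte-like cells it was 2840 CPM (2799 to 2882), 4770 (4743 to 4797) and 4794 (4753 to 4835) in the same order. The 2 classes with the most cells thus stood in opposite order, with keratinocytes highest without UVB and macrophages lowest. The sum is weighted towards the abundant members, so the values of single genes follow.

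**Figure D1:**
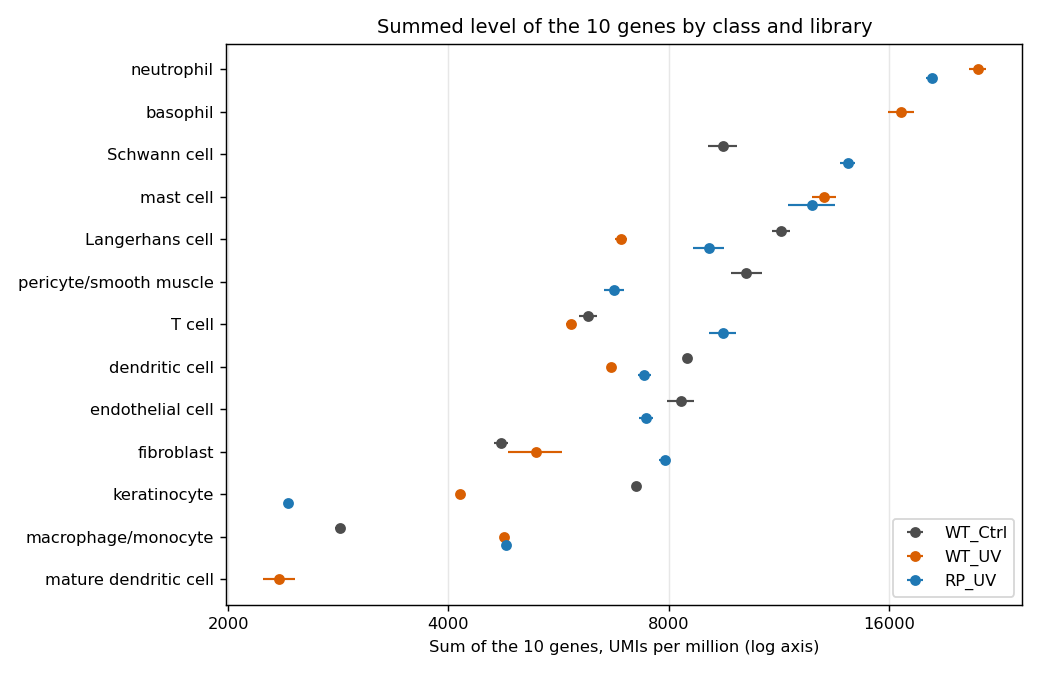
Summed level of the 10 genes in CPM (log axis) for each cell class with at least 30 cells in a library, where points are libraries and bars are exact Poisson 95% intervals. Keratinocytes ran from 7202 in WT_Ctrl to 2415 in RP_UV, macrophages from 2840 in WT_Ctrl to 4794 in RP_UV, and neutrophils stood highest at 21113 in WT_UV.

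Among the remaining classes, neutrophil-like cells had the highest sums, 21113 CPM in WT_UV (60 cells) and 18286 in RP_UV (379 cells), and mature dendritic cell-like cells a low one, 2345 CPM in WT_UV (36 cells). Langerhans cell-like cells, the dendritic cells of the epidermis, were at 11374, 6876 and 9071 CPM in the order WT_Ctrl, WT_UV, RP_UV. Dendritic cell-like cells were at 8463, 6677 and 7405 CPM, and T cell-like cells at 6201, 5880 and 9475. Fibroblast-like cells were at 4713, 5261 and 7891 CPM, of which the WT_UV value came from 34 cells, 29 of them in the cluster led by Slc26a7 and Crabp1. Schwann cell-like cells stood at 9468 CPM in WT_Ctrl and 14024 in RP_UV, pericyte- or smooth muscle-like cells at 10207 and 6728, and endothelial-like cells at 8303 and 7449. Mast cell-like cells were at 13028 CPM in WT_UV and 12529 in RP_UV, and basophil-like cells at 16608 in WT_UV.

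A gene counted as measured in a class where it reached 10 CPM in 1 of the 2 libraries and 10 UMIs over both, and as called where its fold on the log2(CPM + 1) scale was at least 2. Classes were compared where both libraries held at least 30 cells. The share of all measured genes called in the same direction is given as the background of a count, beside the first count it bears on. The median of the members' log2 folds, taken over classes, was −0.14 in WT_UV against WT_Ctrl (6 classes), 0.09 in RP_UV against WT_UV (8 classes) and 0.08 in RP_UV against WT_Ctrl (9 classes). The medians of single classes reached from −0.64 to 0.76 in WT_UV against WT_Ctrl. All 3 comparisons share libraries with each other and are not independent.

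In keratinocyte-like cells after UVB in wild-type skin, Fos, Fosb and Atf3 were called lower, 3 of 10 measured members against a background of 1.48%, and none was called higher. The median of the members' log2 folds was −0.64 against −0.14 over all measured genes. The call of Fos ended under median-ratio size factors (log2 fold −0.94). Jun, the founding partner in AP-1, was at 1402 CPM in WT_Ctrl, 770 in WT_UV and 487 in RP_UV. Its level in WT_UV was 1.82-fold lower than in WT_Ctrl (1.76 to 1.88). Junb, a Jun family member that can restrain Jun, was at 1153, 815 and 394 CPM, and Jund, the member known for steadier expression, at 890, 528 and 437. Each of the Jun genes was highest in WT_Ctrl and lowest in RP_UV, and the ratio intervals of every pair of libraries excluded 1.

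Fos, the inducible partner of Jun, stood in keratinocytes at 1057, 515 and 363 CPM in the same order of libraries, which made WT_UV 2.05-fold lower than WT_Ctrl (1.97 to 2.13). Fosb was at 509, 194 and 133 CPM, 2.63-fold lower in WT_UV than in WT_Ctrl (2.47 to 2.8). Both Fos and Fosb had their largest step between WT_Ctrl and WT_UV. Fosl2, which encodes Fra-2, was at 55, 56 and 31.5 CPM. Fosl1, which encodes Fra-1, was at 10.5, 13.2 and 12.5 CPM, with ratios whose intervals all held 1 (0.926 to 1.7 for WT_UV against WT_Ctrl). These lower-level Fra genes thus did not share the step between WT_Ctrl and WT_UV.

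Atf3, a stress-induced basic leucine zipper factor that pairs with Jun proteins and often represses, was at 781, 313 and 118 CPM in keratinocytes. WT_UV was 2.5-fold lower than WT_Ctrl (2.38 to 2.62) and RP_UV 6.6-fold lower (6.17 to 7.07), the largest fold of any member in this class. Egr1, a zinc finger factor induced through serum response factor, was at 756, 531 and 186 CPM, and Ier2, a small nuclear immediate early protein, at 589, 409 and 253. Egr1 had its largest step between WT_UV and RP_UV, 2.86-fold (2.7 to 3.04).

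RP_UV keratinocytes had 3 members called lower than in WT_UV, Junb, Atf3 and Egr1, against a background of 3.61%, and none called higher. Junb lost its call with a limit of 4000 genes in every library (log2 fold −0.91). The median of the members' log2 folds was −0.68 against 0.08 over all genes. Against WT_Ctrl, which shared the flow cell, 8 of 10 members were called lower in RP_UV (background 7.64%) and the median was −1.53 against −0.05. The members not called were Fosl1 and Fosl2, the latter at a log2 fold of −0.78, and Jund was not called in thinned cells (−0.90). RP_UV keratinocytes were spread differently over clusters. The cluster led by the lipid genes Elovl4, Elovl6 and Scd1 held 115 of 1147 cells in RP_UV, 15 of 1244 in WT_Ctrl and 13 of 543 in WT_UV, and had the lowest sum, 618 CPM. The cluster led by Fcgbp, Col17a1 and Krt5, basal keratinocyte genes, held 370, 84 and 106 cells in the order WT_Ctrl, WT_UV, RP_UV.

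**Figure D2:**
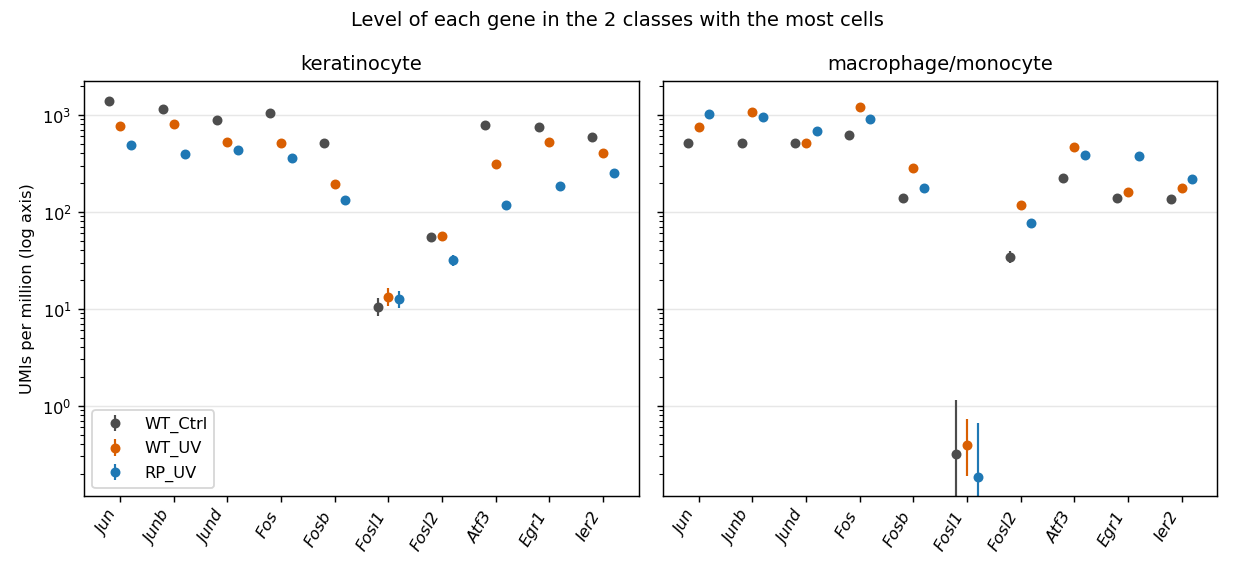
Level of each of the 10 genes in CPM (log axis) in keratinocyte-like and macrophage- or monocyte-like cells, with 1 point per library and exact Poisson 95% intervals, mostly smaller than the points. In keratinocytes 8 genes ran downward from WT_Ctrl over WT_UV to RP_UV, while in macrophages Fosl2 was at 34.2, 117 and 76 and Egr1 at 139, 161 and 381.

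Within clusters the order of the sums mostly held. In 7 keratinocyte clusters with at least 30 cells in both libraries, the sum of the 10 genes was lower in WT_UV than in WT_Ctrl in 7 of 7, with log2 folds from −1.2 to −0.33. Fosb was at least 2-fold lower in 5 and Atf3 in 4 of these clusters. No background share of all genes was computed for single clusters, so these counts have none beside them. Of 9 clusters compared between RP_UV and WT_Ctrl, 8 had a lower sum in RP_UV, and the exception was the cluster led by Ptn, Postn and Lhx2, hair follicle genes, at 5095 against 4688 CPM. Between RP_UV and WT_UV the sum was lower in 6 of 7 clusters, with a median log2 fold of −0.43, but Jund was higher in RP_UV in 4 of the 7, Fos and Fosb each in 3 and Jun in 2. Atf3, Egr1 and Junb were lower in RP_UV in all 7.

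Macrophage- or monocyte-like cells went the other way. In WT_UV against WT_Ctrl, 4 of 9 measured members were called higher, Junb, Fosb, Fosl2 and Atf3, against a background of 3.5%, and 0 were called lower. The median of the members' log2 folds was 0.76 against 0.03 over all genes. Jun was at 513 CPM in WT_Ctrl, 750 in WT_UV and 1016 in RP_UV, and Junb at 516, 1076 and 951. Junb was 2.09-fold higher in WT_UV than in WT_Ctrl (2.01 to 2.16). With every cluster named by its best panel, Junb (log2 fold 0.80), Fosb (0.88) and Atf3 (0.83) fell short of a call, while Fosl2 stayed called. Jund was at 516, 516 and 686 CPM, so the wild-type libraries differed by less than counting error (ratio interval 0.964 to 1.04).

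Fos was at 624, 1216 and 898 CPM in macrophages, a ratio of 1.95 for WT_UV against WT_Ctrl (1.89 to 2.02), just short of the fold for a call. Fosb was at 140, 286 and 178 CPM. Fosl2 was at 34.2, 117 and 76 CPM, 3.43-fold higher in WT_UV than in WT_Ctrl (2.99 to 3.96), the largest fold of a member in this class. The Fos family genes other than Fosl1 were thus highest in WT_UV. Fosl1 had 2, 10 and 2 UMIs in the class and was not measured.

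Atf3 was at 223, 469 and 388 CPM in macrophages and was 2.11-fold higher in WT_UV than in WT_Ctrl (1.99 to 2.23). Ier2 was at 136, 177 and 220 CPM. Egr1 stood apart, at 139, 161 and 381 CPM, 1.15-fold higher in WT_UV than in WT_Ctrl (1.07 to 1.24) and 2.37-fold higher in RP_UV than in WT_UV (2.27 to 2.48). It was the 1 member of 9 called higher in RP_UV against WT_UV (background 1.36%), where the median was −0.21 against −0.02 over all genes. That call was lost in clusters made without integration, where the log2 fold of Egr1 fell from 1.24 to 0.50. Against WT_Ctrl, Fosl2 and Egr1 were called higher in RP_UV (2 of 9, background 5.09%), with a median of 0.75 against 0.04, but the log2 fold of Fosl2 was 0.65 with every cluster named by its best panel and that of Egr1 0.75 without integration.

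Within the macrophage class, the cluster led by Chil3, Thbs1 and Ly6c2, a gene of inflammatory monocytes, had the highest sum in each library, 8007, 11573 and 10057 CPM. The cluster led by Ccl8 and Cd209g had the lowest, 1476, 1286 and 1673. The first held 5.41%, 15.3% and 7.47% of the class, and a further cluster led by Chil3 and Trem2 held 4.21%, 15.5% and 20.2%, so the makeup of the class differed between libraries. In WT_UV against WT_Ctrl the sum was higher in 8 of 10 clusters (median log2 fold 0.52). Single genes were at least 2-fold higher in fewer clusters, Fosl2 in 4, Atf3 in 3, Fosb in 2 and Junb in 1 of the 10. These counts, and that of Egr1 below, likewise have no background share beside them. In RP_UV against WT_Ctrl the sum was higher in 9 of 10 (median 0.73). In RP_UV against WT_UV it was higher in 7 of 10 (median 0.41), although the median member fold over the whole class was below 1. Jund was higher in RP_UV than in WT_UV in 10 of these clusters, Jun in 9, Ier2 in 8 and Junb in 7, but Fos and Fosb each in 4. Egr1 was at least 2-fold higher in RP_UV than in WT_UV in 6 of 10 macrophage clusters. Atf3 was higher there in 7 of 10 clusters (median 0.67), although its level over the whole class was lower in RP_UV.

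**Figure D3:**
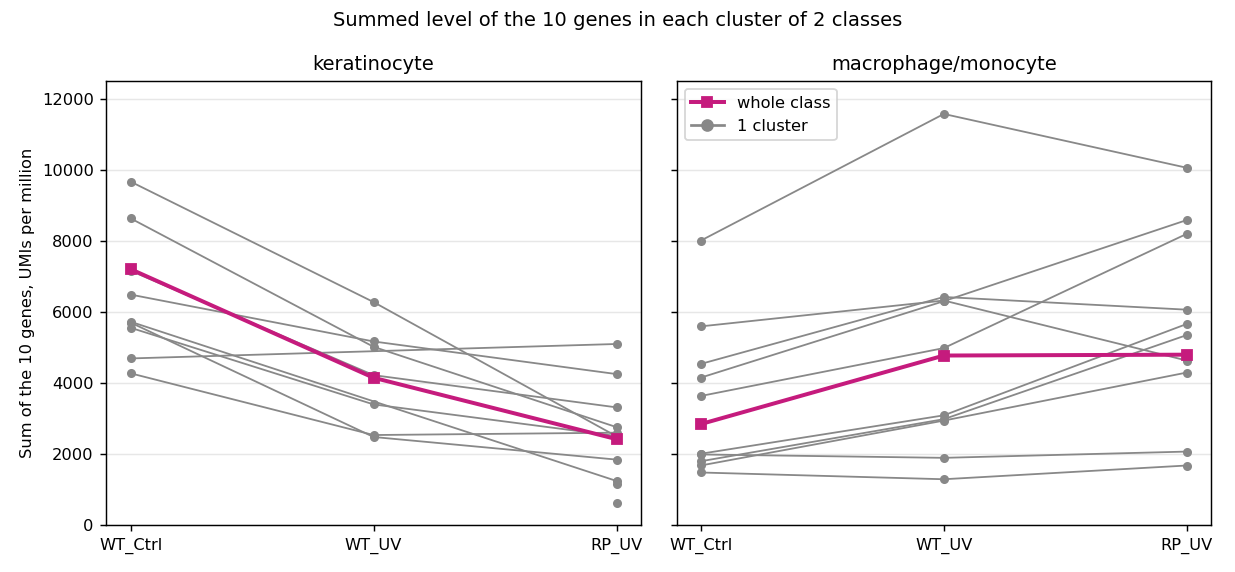
Summed level of the 10 genes in CPM in each cluster (grey) and in the whole class (magenta) of keratinocyte-like and macrophage- or monocyte-like cells in the 3 libraries, where a cluster with under 30 cells in a library has no point there and its line passes over it. The sum was lower in WT_UV than in WT_Ctrl in 7 of 7 keratinocyte clusters and higher in 8 of 10 macrophage clusters.

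The same contrast was seen per cell after each cell had been thinned to 2000 UMIs and shallower cells left out. The median thinned cell held 11, 5 and 2 UMIs of the 10 genes among keratinocytes of WT_Ctrl, WT_UV and RP_UV (1104, 424 and 884 cells), and 3, 7 and 7 among macrophages (1401, 2030 and 1874 cells). Before thinning the medians were 30, 15 and 6 in keratinocytes and 5, 34 and 17 in macrophages. Thinned cells without any of the 10 made up 5.34%, 11.8% and 19.9% of keratinocytes and 16.6%, 7.64% and 6.51% of macrophages. The tenth of keratinocytes with the most UMIs of these genes held 29.3%, 35% and 46.5% of them, and the tenth of macrophages 44.1%, 34.9% and 33%. In both classes the share was largest where the median was smallest, so a change in spread between cells cannot be read from it.

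Fos was detected in 61.6%, 39.4% and 29.2% of thinned keratinocytes (71%, 56.9% and 39.2% unthinned) and in 38.6%, 59.3% and 51.6% of thinned macrophages (48.3%, 82% and 64.6% unthinned). No class present lacks Fos, so a background share from free RNA could not be read from it. Fosl1 was detected in 1.81%, 1.42% and 1.81% of thinned keratinocytes, against 0%, 0.0985% and 0.0534% of macrophages. Whether the few Fosl1 UMIs of macrophages were free RNA or their own was not tested. In keratinocytes with a Fos UMI the other members were detected more often in each library. In other classes most members were too. Exceptions included Ier2 in WT_Ctrl T cells (59.2% with Fos against 60% without) and Fosl2 in WT_Ctrl endothelial cells (27.8% against 35%). Of WT_Ctrl keratinocytes with Fos, 60% also had Fosb and 57.8% Atf3, against 21.2% and 19.6% of those without, and in RP_UV the shares were 38% and 29.5% against 6.23% and 4.95%. These pairs share a cell and its quality and are given as a description.

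RNA released by other cells can add to the counts of a class. Scaled by macrophage markers, at most 4.58% of Jun, 5.42% of Fos and 4.5% of Egr1 in RP_UV keratinocytes could have come from macrophage RNA, and by neutrophil markers at most 5.3% of their Fos. In RP_UV T cells the bounds from macrophage RNA were higher, 36.4% of Jun, 21.5% of Atf3 and 19.1% of Egr1, and from neutrophil RNA 24.5% of Egr1. Egr1 in RP_UV dendritic cells had bounds of 15.9% from macrophages and 26.1% from neutrophils, and in RP_UV Langerhans cells 20.8% and 14%. In RP_UV macrophages at most 2.93% of Egr1 could have come from neutrophil RNA.

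T cell-like cells had 0 of 9 measured members called in WT_UV against WT_Ctrl, with a median log2 fold of 0. The background there was 3.28% higher and 1.61% lower. In RP_UV against WT_UV, 4 of 9 measured members were called higher, Jun, Fosb, Atf3 and Egr1, against a background of 10.9%, with a median of 0.8. Over WT_Ctrl, WT_UV and RP_UV, Jun stood at 140, 250 and 523 CPM and Egr1 at 113, 135 and 373. The RP_UV values came from 88 cells and from 122 UMIs of Jun and 87 of Egr1. Against WT_Ctrl 3 were called higher, Jun, Atf3 and Egr1 (background 10.6%). Each call against WT_UV was lost under some alternative. Atf3, at 110, 97 and 339 CPM, turned to a log2 fold of −0.42 when cells were named from their own marker UMIs. Fosb fell to 0.04 without integration, Jun to 0.25 with all deposited barcodes and Egr1 to 0.94 as a mean over cells. The class median fell as low as 0.19. Against WT_Ctrl, Jun fell to 0.55 with all deposited barcodes.

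Egr1 was called higher in RP_UV than in WT_UV in 5 of the 8 classes compared. Besides macrophages and T cells these were dendritic cells, where it was the 1 member called (63.1, 71.6 and 193 CPM, background 3.77%), Langerhans cells, together with Jun (232, 174 and 420 CPM, 2 members, background 9.15%), and fibroblasts, together with Fosb and Ier2 (759, 192 and 1170 CPM, 3 members, background 28.8%). The ratio in dendritic cells was 2.7 (2.31 to 3.13) and in Langerhans cells 2.41 (1.85 to 3.11). The calls in dendritic cells (lowest log2 fold 1.09) and fibroblasts (2.54, from 34 WT_UV cells) held under the alternatives that could be run. Those in macrophages (0.50 without integration), Langerhans cells (0.77 as a mean over cells) and T cells were each lost under 1 or more. None of the alternatives took out free RNA. Its bounds for Egr1 in RP_UV dendritic, Langerhans and T cells are given above, and its part in these calls was not tested. Jun in Langerhans cells fell to 0.78 in thinned cells, and Fosb in fibroblasts to 0.88 as a mean over cells. In keratinocytes Egr1 was called lower. In mast cells it was at 2248 CPM in WT_UV and 2191 in RP_UV. In neutrophils it was at 1921 and 1432 CPM, a log2 fold of −0.42 that turned to 1.34 with every cluster named by its best panel. Against WT_Ctrl, which shared a flow cell with RP_UV, Egr1 was called higher in 3 of 9 classes and lower in 2. Fibroblasts and Langerhans cells were not among the 3, and their Egr1 level was lowest in WT_UV.

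**Figure D4:**
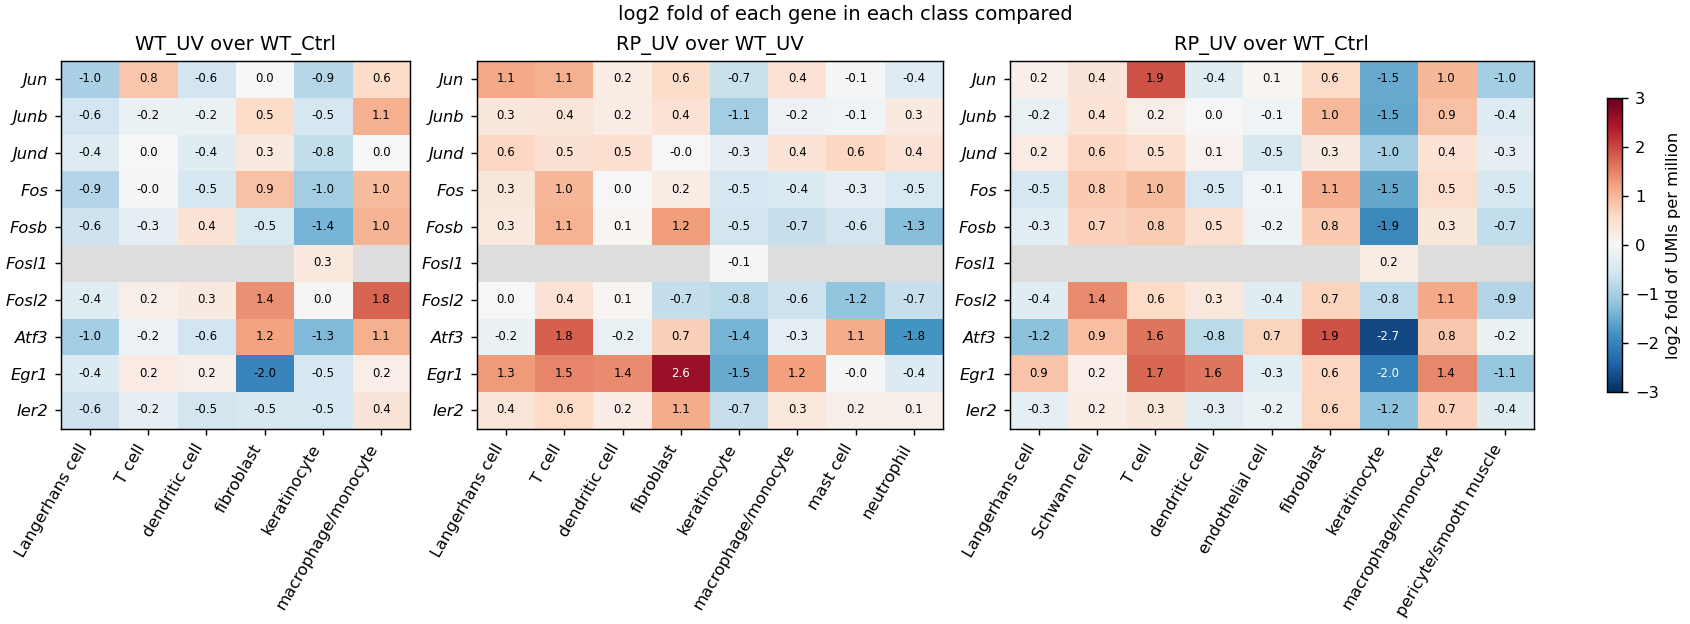
log2 fold of each of the 10 genes in each class compared, for WT_UV against WT_Ctrl, RP_UV against WT_UV and RP_UV against WT_Ctrl, where red is higher, blue is lower and grey marks genes with too few UMIs. The keratinocyte columns are mostly blue, down to −2.71 for Atf3 in RP_UV against WT_Ctrl, and the Egr1 row is red in 5 classes in RP_UV against WT_UV.

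Dendritic cells had 0 members called in WT_UV against WT_Ctrl (median log2 fold −0.28, background 2.83% higher and 1.28% lower). Only Egr1 was called higher in RP_UV against WT_Ctrl (background 7.83%). Their largest clusters differed, the one led by Apod and Rbp4 in WT_Ctrl (48.3% of the class) and the one led by Mmp12 and Ear2 in WT_UV (57.3%) and RP_UV (66%). Langerhans cells had a median of −0.6 in WT_UV against WT_Ctrl, and Atf3 was called lower (1529, 750 and 655 CPM, background 5.52%), a call lost with a limit of 4000 genes in every library (log2 fold −0.70). Atf3 was also the 1 member called lower in RP_UV against WT_Ctrl (background 13.3%), from 34 cells.

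Neutrophils could be compared only between RP_UV and WT_UV. Fosb, at 2034 CPM in WT_UV and 845 in RP_UV, and Atf3, at 916 and 264, were called lower in RP_UV (2 of 9, background 13.7%), and Fos was at 6111 and 4444. With every cluster named by its best panel Fosb lost its call (log2 fold −0.40 in place of −1.27), Fos turned from −0.46 to 0.56, and Atf3 stayed called lower (−1.16). Junb was at 6119 and 7366 CPM and Jund at 1309 and 1758, so both were higher in RP_UV without a call. Neutrophils held a median of 3308 UMIs per cell in WT_UV and 1389 in RP_UV. Mast cells had Fosl2 called lower (background 19.8%) and Atf3 called higher (background 10.2%) in RP_UV against WT_UV, from 4 and 12 UMIs in RP_UV, both ratio intervals held 1, and both calls were lost under an alternative (log2 folds −0.52 and 0.50).

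In fibroblasts of WT_UV against WT_Ctrl, Fosl2 and Atf3 were called higher (background 21.9%) and Egr1 lower (background 26.1%), from 34 cells and 16, 10 and 20 UMIs, and Atf3 lost its call as a mean over cells (log2 fold 0.56). The background shares are high in this comparison, and the cluster that held 29 of the 34 cells was also the fibroblast cluster with the highest sum in WT_Ctrl, 9512 CPM. RP_UV against WT_Ctrl rested on 411 and 367 cells, and there Fos (736 and 1574 CPM, 2.14-fold, 2 to 2.29) and Atf3 (40.9 and 157 CPM, 3.85-fold, 2.93 to 5.11) were called higher in RP_UV, 2 of 9 against a background of 6.65%. Fos lost its call in thinned cells (log2 fold 0.87). Heat shock chaperones, transcripts known to rise during tissue dissociation, had 4 of 12 called higher and 0 lower in the same cells (median 0.91), and their part in the levels of Fos and Atf3 was not tested. In the same comparison Jun and Egr1 were called lower in pericyte- or smooth muscle-like cells (1460 and 716 CPM, 1662 and 760 CPM, background 12.1%), Jun not under median-ratio size factors (log2 fold −0.97). Fosl2 was called higher in Schwann cells from 4 and 30 UMIs (background 9.2%, ratio interval 0.96 to 10.6, log2 fold 0.15 without integration). In endothelial cells 0 members were called (background 9.81% higher and 9.21% lower).

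The wider pathway was read from lists of genes. Of 24 other immediate early genes, 20 were measured in macrophages in WT_UV against WT_Ctrl, of which 11 were called higher (background 3.5%) and 0 lower, with a median log2 fold of 1.02. The largest folds were those of the orphan nuclear receptors Nr4a2 (8.03 to 67.4 CPM), Nr4a1 (37.8 to 151) and Nr4a3 (8.66 to 34). In keratinocytes of RP_UV against WT_Ctrl 10 of 20 were called lower (background 7.64%) and 1 higher (6.61%), with a median of −0.93, led by Ccn1 (121 to 30.2 CPM), Nr4a1 (81.1 to 21.3) and Sik1 (63.4 to 17.8). In RP_UV against WT_UV macrophages 4 of 20 were called lower (background 3.04%) and 0 higher, led by Nr4a3 (34 to 12.9 CPM), Nr4a2 (67.4 to 26.7) and Egr2 (45.1 to 20.1), beside Egr1 that was higher.

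Feedback inhibitors, which switch off kinases, cytokine signals or unstable transcripts, had 6 of 9 measured genes called higher in WT_UV macrophages against WT_Ctrl (background 3.5%) and 0 lower (median 1.14), led by Dusp2 (11.2 to 54.6 CPM), Dusp5 (5.98 to 20.2) and Tnfaip3 (40.3 to 111). In keratinocytes of RP_UV against WT_Ctrl 6 of 9 were called lower (background 7.64%) and 1 higher (6.61%, median −1.38), led by Zfp36 (480 to 145 CPM), Zfp36l1 (288 to 103) and Nfkbia (755 to 273). Other basic leucine zipper partners had 2 of 14 called higher (background 3.5%) and 1 lower (1.04%) in WT_UV macrophages, among them Maff (4.72 to 15 CPM) and Cebpb (261 to 534) higher and Batf3 (83.7 to 31.6) lower. Upstream kinases and serum response or CREB factors had 1 of 14 called higher (background 3.5%), Crem (12.4 to 42.7 CPM), a cyclic AMP-responsive factor. In keratinocytes of WT_UV against WT_Ctrl, 0 of 10 partners and 0 of 9 upstream genes were called (background 2.3% higher and 1.48% lower).

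Of 12 genes known as AP-1 targets, only 5 were measured in RP_UV against WT_Ctrl keratinocytes, and as a set these did not follow the members. Of the 5, 2 were called higher and 0 lower, Hmox1 (5.88 to 26.1 CPM) and Areg (18 to 43.3). Their median log2 fold was 0.88 against −0.05 over all genes, of which 6.61% were called higher. In WT_UV macrophages against WT_Ctrl 6 of 9 were called higher (background 3.5%) and 0 lower (median 1.38), led by the collagenase gene Mmp13 (4.72 to 28.6 CPM), Timp1 (4.09 to 24.4) and Plaur (17 to 55.6). Heat shock chaperones, a group that cell stress raises, had 0 of 12 called in keratinocytes (median −0.17) and 0 of 12 in macrophages (0.16) in WT_UV against WT_Ctrl. In RP_UV against WT_Ctrl they had 4 of 12 called higher (background 5.09%) and 0 lower in macrophages (median 0.78), and 1 higher and 1 lower in keratinocytes (0.31). Their part in the levels of the members was not tested.

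The pattern of the members over the 30 sums of a class in a library with at least 30 cells differed between genes. The Pearson correlation of log2(CPM + 1) was 0.88 between Fos and Fosb, 0.8 between Fos and Junb and 0.8 between Fosb and Junb, 0.79 between Jun and Egr1 and 0.84 between Jund and Ier2, but 0.04 between Jun and Junb and −0.11 between Atf3 and Egr1. With Junb, Jund stood at 0.77 and Fosl2 at 0.78. Atf3 stood at 0.35 with Junb and 0.46 with Fos. The 30 points share libraries and depth and carry no test. Other genes most like the mean profile of the members included Zfp131 (0.83), Nr4a1 (0.81), the clock gene Per1 (0.79), Ppp1r10 (0.76), Nfkbia, which encodes an inhibitor of NF-κB (0.74), the histone gene H3f3b (0.74) and Ier3 (0.73).

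The members were also counted in barcodes that the limits on cells had removed. Barcodes with a mitochondrial share of 10% or more had a summed level of 5413 CPM in WT_Ctrl (450 barcodes), 4793 in WT_UV (716) and 3484 in RP_UV (953), against 5975, 5529 and 5496 in kept cells. Those removed for their number of genes were at 7687, 5420 and 2689 CPM.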

How the data were processed

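Per the file headers the files that the authors deposited hold raw UMI counts of every gene in every barcode, made with Cell Ranger 6.1.1, and the labels name mm10. Cells were kept as in the methods of the study, with a mitochondrial share under 10%, over 200 genes and under 4000 genes (6000 in WT_UV). Libraries were integrated with SCTransform in Seurat 5.3.0 (R 4.3.3). The 3000 features came from a ranking from which the members were left out. Listed genes were left out too, except those that were also markers of a class panel. With 30 dimensions and a resolution of 3 this gave 53 clusters. Clusters were named from 19 marker panels, with limits set after the clusters had been seen, and 41 were named. Cells with 4000 genes or more, 1112 in number, were kept in WT_UV alone. Scrublet called 1.32%, 0.0191% and 0.0329% of cells as doublets, too few in WT_UV and RP_UV for the calls to be used. Doublets thus stayed in the main results. Leaving out the cells of highest Scrublet score, 272, 282 and 320 in number, was tried as an alternative.

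Raw counts were summed per class and library and divided by the UMIs of all genes (CPM), with exact Poisson intervals, and ratios had intervals from the conditional binomial. Fold changes used a pseudocount of 1 CPM and understate those of low genes. Thinned shares used 2000 UMIs. With 1 library per group no test was made. The fold and interval code was tested on simulated data. Free RNA bounds scale a member's level in the source class by the level of that class's markers in the receiving class. Sequences came from RefSeq promoters (GRCm38.p6).

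The members and gene lists were chosen with earlier results of these data known. From each list the text names up to 3 genes with the largest fold in a class with at least 100 cells in both libraries, and the genes of most similar pattern are the 8 with the highest correlation and a maximum of at least 50 CPM, of which 1 is not reported here. The alternatives tried were other limits on cells, removal of the cells of highest Scrublet score, other cluster names and thinning. Means over cells, other pseudocounts, scaling and minimum levels, and other sets of classes were also tried.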

Additional observations from a re-analysis of the deposited data

Results flagged for a closer look

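Members called at least 2-fold in opposite directions in different classes of the same comparison, with ratio intervals that exclude 1, were looked at again. The differences between classes were not tested, since each group had 1 library, and all values are log2 folds.

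Several of the calls named here ended under another processing choice, as given with the results of each class. In RP_UV against WT_UV, each call of Fosb did, at 0.04 in T cells, 0.88 in fibroblasts and −0.40 in neutrophils.

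In WT_UV against WT_Ctrl, Fosb was at 1.03 in macrophages and −1.39 in keratinocytes. Atf3 was at 1.21 in fibroblasts and 1.07 in macrophages but −1.03 in Langerhans cells and −1.32 in keratinocytes.

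In RP_UV against WT_UV, Fosb was at 1.05 in T cells and 1.25 in fibroblasts but −1.27 in neutrophils. Atf3 was at 1.79 in T cells but −1.40 in keratinocytes and −1.79 in neutrophils. Egr1 was at 1.27 in Langerhans cells, 1.46 in T cells, 1.42 in dendritic cells, 2.60 in fibroblasts and 1.24 in macrophages, but −1.51 in keratinocytes.

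In RP_UV against WT_Ctrl, Jun was at 1.90 in T cells but −1.52 in keratinocytes and −1.03 in pericyte- or smooth muscle-like cells. Fos was at 1.10 in fibroblasts and −1.54 in keratinocytes. Atf3 was at 1.61 in T cells and 1.92 in fibroblasts but −1.22 in Langerhans cells and −2.71 in keratinocytes. Egr1 was at 1.72 in T cells, 1.60 in dendritic cells and 1.44 in macrophages but −2.02 in keratinocytes and −1.13 in pericyte- or smooth muscle-like cells.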

How the results depend on the processing

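The class medians of keratinocytes and macrophages in WT_UV and in RP_UV against WT_Ctrl kept their direction under all 14 alternatives, from −0.79 to −0.55 and from 0.61 to 1.09 in the first comparison and from −1.64 to −1.38 and from 0.56 to 1.02 in the second. Of 691 alternative values for members past the 2-fold limit in a class, 680 kept their direction, which does not mean that they stayed past the limit. The reversed ones were Atf3 in T cells, at −0.13 without integration, −0.42 with cells named from marker UMIs, −0.18 with every cluster named by its best panel and −0.82 with all deposited barcodes in RP_UV against WT_UV, and at −0.56 and −0.62 with cells named from marker UMIs in kept and in all barcodes against WT_Ctrl, and Fosl1 in T cells, which was not measured there (1.52 with every cluster named). The class median of neutrophils in RP_UV against WT_UV ranged from −0.60 to 0.78. The medians over classes lie near 0, and both of RP_UV took either sign under the alternatives, from −0.21 to 0.29 against WT_UV and from −0.17 to 0.40 against WT_Ctrl. That of WT_UV against WT_Ctrl moved to −0.43 without integration, −0.41 with thinned cells and −0.36 with all deposited barcodes, and that of RP_UV against WT_UV to −0.21 with classes of at least 100 cells. That of RP_UV against WT_Ctrl moved to 0.27 with cells named from marker UMIs, with or without the limits on cells, to 0.40 with classes of at least 100 cells, and to 0.38 with the 6 classes present in all libraries, an alternative chosen after seeing the data. The cause was not tested. No paired analysis was possible because each group had 1 library. Depth limits Fosl1 outside keratinocytes and every member in classes of under 100 cells.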
